A study of Mus musculus with 6 samples.

Results

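The transcription termination sites (TTS) of isolated genes were examined for acetylation of histone H4 at lysine 5 (H4K5ac) in the hippocampus of adult mice. A TTS was taken as the last annotated base of a gene, and it was included when the gene was protein-coding, lay on chromosomes 1 to 19, was at least 10 kb long and had no other annotated gene within 10 kb of that base. Of 12965 autosomal protein-coding genes of at least 10 kb, 5576 had such a TTS (43.0%), with 2753 on the plus strand and 2823 on the minus strand. Of these, 3 lay too close to a chromosome end and 7 had an assembly gap in the window, so that 5566 members were measured. The 7380 remaining measured TTS, which have a neighbouring gene within 10 kb, are called other TTS. Each region was read in the direction of transcription, with the 5 kb before the TTS (upstream, inside the gene) set against the 5 kb after it (downstream, outside the gene).

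Chromatin came from the hippocampus of mice labelled as C57/BL6 and 6 months old, which the study describes as adult C57Bl6/J males. Mice of the fear-conditioned group (FC) received foot shocks in a context, and mice of the control group (CON) explored that context unshocked. The labelled tissue, strain and age were the same in both groups, and no genetic change was made. The study itself gives a range of ages that includes 6 months, not a single age. For each group there was 1 library of chromatin pulled down by an H4K5ac antibody (H4K5ac-ChIP), 1 mock pull-down with IgG (IgG-IP) and 1 of DNA that was not pulled down (input), 6 libraries in all. The study used 3 hippocampal samples per group, but whether a library pools them was not given in the sources used here. Every comparison of FC with CON therefore compares 1 library with 1 library, with no replicate check. Intervals are 95% counting intervals and cover the sampling of reads only, not differences between animals or preparations.

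Histone H4 is packed into every nucleosome, and acetylation of lysines in its tail is known as a mark of accessible, transcribed chromatin. At the 3′ end of a protein-coding gene, RNA polymerase II transcribes past the site where the transcript is cleaved and polyadenylated, and it leaves the DNA only some distance further on. Cleavage is directed by a hexamer in the RNA, written AATAAA in its usual DNA form, a short way before the cleavage site. The TTS of an annotation stands for this cleavage site, not the place where transcription stops. At 681 of the 5576 members the longest protein-coding transcript ended at another base. Whether each annotated end is a true cleavage site was not tested, so sequence beyond it may still be transcribed into the mature RNA. Genes without a close neighbour let the 10 kb beyond the TTS be read without the body of another annotated gene in it. At 914 members a gene on the same strand began at 10 to 20 kb. The sequence before its start can lie in the region 5 to 10 kb beyond the TTS.

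The 30 bases that end at the TTS are shown for 7 members described further on, to show how these annotated ends look. They are 4 members that the study names for H4K5ac and 3 synaptic genes with high H4K5ac-ChIP density. All are the last bases of the final exon of the gene, read 5′ to 3′ on the coding strand from the NCBIM37 (mm9) genome, and capitals mark the AATAAA nearest the end.
Ntrk2 (chr13:59235302-59235331, plus strand): cttacAATAAAtaacatcttccacaagagg
Akap6 (chr12:54251973-54252002, plus strand): aaacaaataaacaagtgAATAAAataagaa
Grid1 (chr14:36396536-36396565, plus strand): tgtttaatAATAAAacatgtctactcctaa
Kcnd2 (chr6:21679776-21679805, plus strand): taAATAAAacatgtgcatgcttgaacagga
Epha4 (chr1:77363760-77363789, minus strand): gtAATAAAgtagttgccgtatacaaacctg
Rims2 (chr15:39513457-39513486, plus strand): gaagtcgtacacattgtgccctagcaaagg
Gabrd (chr4:154759089-154759118, minus strand): tcccagcatgaAATAAAgccttgacctggc
The hexamer began 13 to 28 bases before the end in 6 of these 7 members, and neither AATAAA nor the common variant ATTAAA was found in the 30 bases of Rims2. AATAAA was searched on the coding strand in the 50 bases before each TTS. It was found at 3257 members (58.5%), at a median of 23 bases from the TTS, against 59.5% of all 12946 measured TTS. A further 810 members (14.6%) held ATTAAA only, and 1499 (26.9%) held neither.

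The genes of the members ran from the limit of 10 kb to 3009 kb in length, with a median of 41.8 kb and a longer median than the other TTS. The next annotated gene downstream began at a median of 33.4 kb. Mean GC content was 43.7% on both sides of the TTS, against 46.5% upstream and 46.7% downstream of the other TTS. Libraries held 11516839 to 38243819 distinct autosomal reads, and the median member had 68 reads upstream and 62 downstream in FC H4K5ac-ChIP, and 81 and 74 in CON H4K5ac-ChIP. IgG-IP was the shallowest, with a median of 25 and 30 upstream reads, so values of single members in IgG-IP carry the widest counting error. Read density is given as RPKM, reads per kilobase and per 1000000 distinct autosomal reads, and its mean over 10-kb windows of chromosomes 1 to 19 was 0.404 in each library. The tissue was checked at the start sites of marker genes, since no RNA was measured. Median H4K5ac-ChIP density over input in FC and CON was 1.29 and 1.21 for 7 neuronal markers, 1.28 and 1.70 for 3 hippocampal excitatory markers, 1.34 and 2.25 for 4 astrocyte markers, 1.5 and 1.70 for 3 oligodendrocyte markers, and 0.764 and 0.857 for 8 markers of liver, muscle and T cells. Single markers varied, with hippocampal excitatory ones from 0.557 to 2.56 in FC and 0.888 to 3.25 in CON. Neuronal ones ran from 0.979 to 2.02 and 0.889 to 2.11. Those of other tissues ran from 0.313 to 1.07 and 0.353 to 1.36, and only the oligodendrocyte range did not overlap theirs.

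H4K5ac did not end at the TTS. In the mean over all members, FC H4K5ac-ChIP density was 0.538 RPKM from 5 to 4 kb before the TTS, 0.501 in the last kilobase of the gene, 0.517 in the kilobase after it and 0.520 in the next. It then fell kilobase by kilobase to 0.499, 0.487 and 0.468, and reached 0.437 at 9 to 10 kb beyond the TTS. CON H4K5ac-ChIP gave 0.527, 0.501, 0.514 and 0.510 at the same places, then 0.493, 0.478 and 0.461, and 0.423 at 9 to 10 kb. The raw level inside the gene was thus nearly held for about 2 kb beyond its annotated end, and the raw decline ran over the following kilobases. FC input moved less, from 0.504 at 5 to 4 kb before the TTS to 0.471 at 4 to 5 kb and 0.462 at 9 to 10 kb after it, and CON input from 0.445 to 0.425 and 0.411. Relative to input, the decline had begun inside the gene. From 10 to 5 kb before the TTS to the last 5 kb, H4K5ac-ChIP went from 0.533 to 0.528 in FC and from 0.529 to 0.521 in CON. Input rose over the same windows, from 0.493 to 0.502 in FC and from 0.437 to 0.445 in CON.

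**Figure D1:**
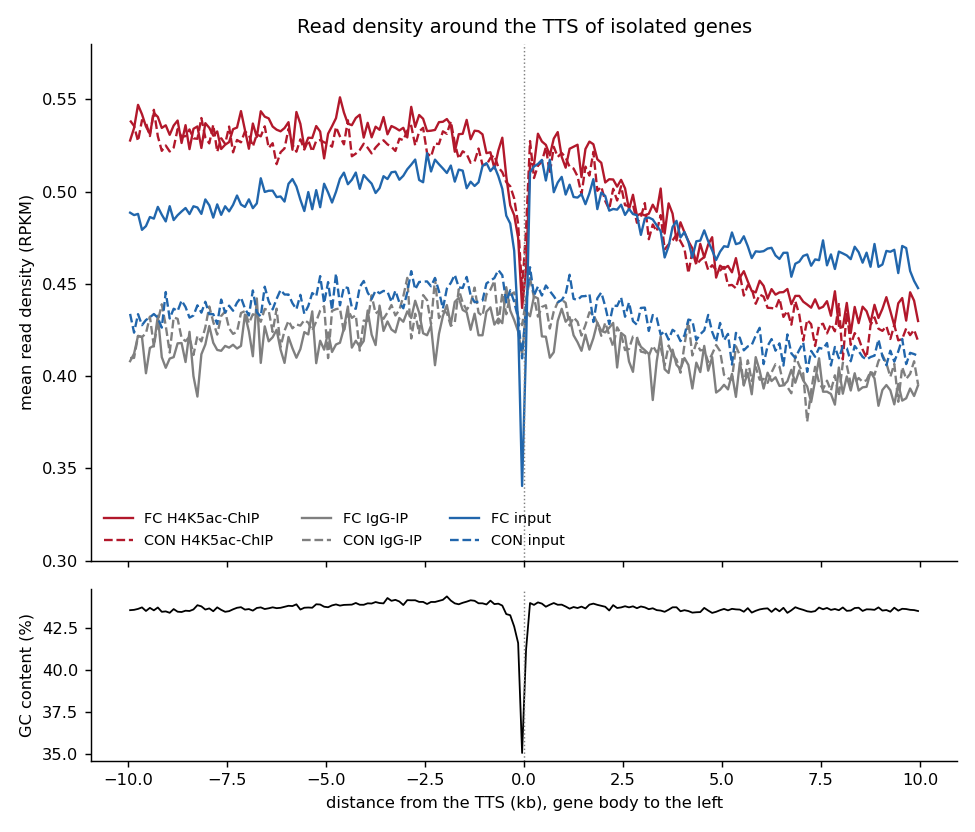
Mean read density (upper panel, RPKM, axis from 0.3) and GC content (lower panel, %) in 100-bp bins against distance from the TTS, over 5566 members, with FC as solid and CON as dashed lines. Both H4K5ac-ChIP lines cross the TTS, stay near 0.52 for about 2 kb and decline beyond it, and the sharp minimum in the last 100 bp of the gene lies at the minimum of GC content.

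The step at the TTS, the reads in the 5 kb before it over those in the 5 kb after it, was small. Upstream and downstream density was 0.528 and 0.498 RPKM in FC H4K5ac-ChIP, a step of 1.06 (1.06 to 1.07), and 0.521 and 0.491 in CON, a step of 1.06 (1.06 to 1.06). Input gave 0.502 and 0.488 in FC, a step of 1.03 (1.02 to 1.03), and 0.445 and 0.435 in CON, a step of 1.02 (1.02 to 1.03). The IgG-IP step was 1.03 in both groups. Set against the input step of the same group, the FC H4K5ac step was 1.03 (1.03 to 1.04) and that of CON 1.04 (1.03 to 1.04). With 2 kb on each side in place of 5 kb the raw H4K5ac step was absent, at 0.996 (0.989 to 1.00) in FC and 0.999 (0.993 to 1.01) in CON.

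The decline was clearer against the region 5 to 10 kb beyond the TTS. Density there was 0.441 RPKM in FC H4K5ac-ChIP and 0.431 in CON, so that the last 5 kb of the gene were 1.20-fold (1.19 to 1.20) and 1.21-fold (1.20 to 1.21) higher. The same ratio was 1.08 in FC and CON input. Relative to input, H4K5ac-ChIP density in FC went from 1.05 in the last 5 kb of the gene to 1.02 in the 5 kb after it and 0.949 at 5 to 10 kb, and in CON from 1.17 to 1.13 and 1.04. For comparison, the members had 0.655 RPKM within 2 kb of their own transcription start site (TSS) and 0.532 in the middle 5 kb of the gene in FC, and 0.610 and 0.532 in CON. The gene end thus carried nearly the raw density of the gene middle. Input rose from the middle to the last 5 kb, from 0.473 to 0.502 RPKM in FC and from 0.433 to 0.445 in CON. Relative to input, the gene end was therefore lower than the middle.

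The TTS itself was marked by a narrow minimum that the input shared. In the last 100 bp of the gene, FC H4K5ac-ChIP fell to 0.437 RPKM, 83.0% of the level 1 to 2 kb away, and CON to 0.447, 86.5% of it. FC input fell further, to 0.340 or 67.6%, and CON input to 0.410 or 92.1%. GC content in the same 100 bp was 35.0%, against 43.9% in the flanks. In IgG-IP the lowest bin within 1 kb was not at the TTS and reached 95.9% of the flanks in FC and 98.3% in CON. The part of base composition in this minimum was not tested.

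The other TTS differed from the members in level and in step. Their H4K5ac-ChIP density was 0.689 RPKM upstream and 0.709 downstream in FC, a step of 0.971 (0.968 to 0.974), and 0.668 and 0.683 in CON, a step of 0.978 (0.975 to 0.981). The counting intervals did not overlap those of the members. The input steps of the other TTS were 1.02 (1.01 to 1.02) in FC and 1.01 (1.01 to 1.02) in CON, and these too did not overlap those of the members, though the gap was smaller. The difference was not tested across animals, and the windows of the other TTS contain parts of neighbouring genes.

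H4K5ac at the end of a gene went with H4K5ac at its start. Members were put into quartiles by the reads within 2 kb of their own TSS in the H4K5ac-ChIP library of the other group, so that no read was used for both. In FC, downstream density rose from 0.243 RPKM in the lowest quartile (1359 members) to 0.505, 0.594 and 0.643 in the highest (1395 members), a ratio of 2.65 (2.62 to 2.68) between highest and lowest. In CON it rose from 0.237 to 0.499, 0.587 and 0.637, a ratio of 2.69 (2.66 to 2.72). The same split gave ratios of 1.45 in FC input, 1.22 in CON input, 1.09 in FC IgG-IP and 1.14 in CON IgG-IP. At 5 to 10 kb beyond the TTS the H4K5ac-ChIP ratio was 2.45 in FC and 2.49 in CON.

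GC content moved with this split, since its upstream mean was 41.7% in the lowest quartile and 44.8% in the highest in FC. Within the 4 quartiles of GC content, the downstream H4K5ac-ChIP ratio between the highest and lowest TSS quartile was 3.08, 2.39, 1.89 and 1.77 in FC, from lowest to highest GC content. The input ratios were 1.40, 1.33, 1.13 and 1.07. CON gave 2.97, 2.51, 1.90 and 1.81 in H4K5ac-ChIP and 1.26, 1.28, 1.08 and 1.08 in input. The relation to the TSS was thus present in each class of GC content and exceeded that of input there.

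**Figure D2:**
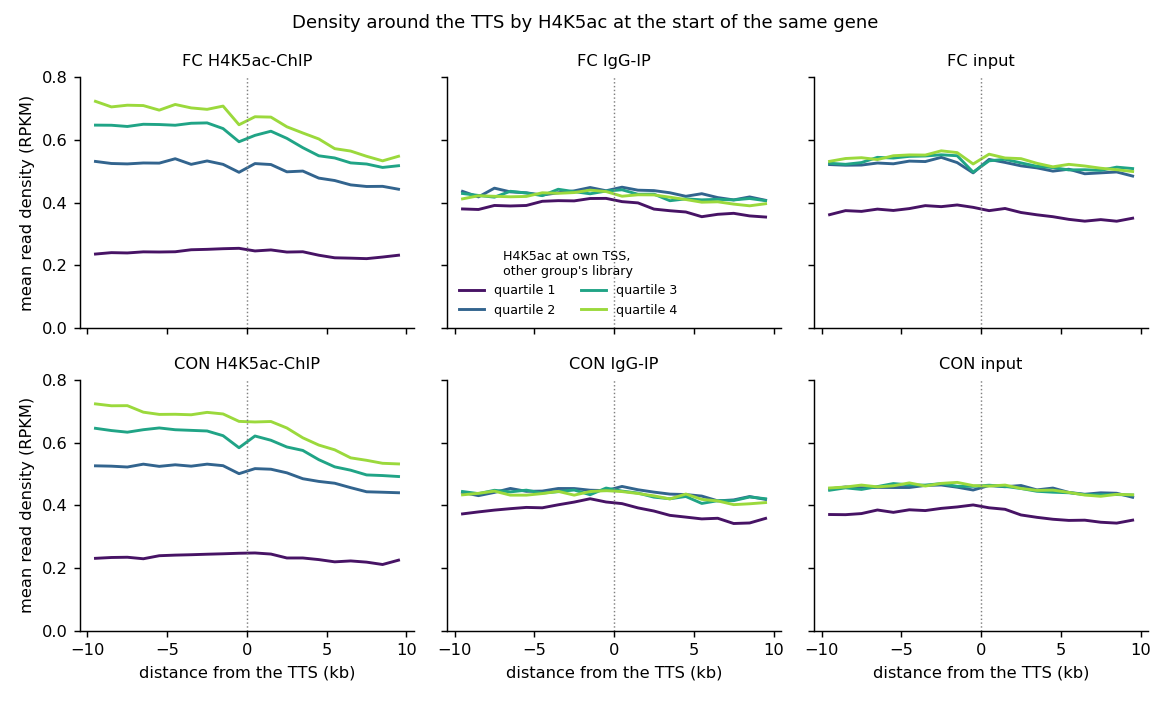
Mean read density (RPKM) per kilobase against distance from the TTS, for quartiles of H4K5ac-ChIP reads at the gene's own TSS taken from the other group's library, with FC above and CON below. The 4 lines are spread from about 0.24 to 0.71 RPKM before the TTS in H4K5ac-ChIP and keep their order beyond it, while in IgG-IP and input the upper 3 quartiles lie close together and the lowest lies below them.

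The decline past the TTS was also graded by the TSS. In the highest quartile, FC H4K5ac-ChIP went from 0.694 RPKM upstream to 0.643 downstream and 0.553 at 5 to 10 kb, a step of 1.08 (1.07 to 1.09), and CON from 0.687 to 0.637 and 0.548, also a step of 1.08 (1.07 to 1.09). In the lowest quartile it went from 0.250 to 0.243 and 0.225 in FC, a step of 1.03 (1.02 to 1.05), and from 0.244 to 0.237 and 0.220 in CON, again 1.03 (1.02 to 1.04). Input had a step of 1.05 in the lowest and 1.03 in the highest quartile in both groups. The counting intervals of H4K5ac-ChIP and input overlapped in the lowest quartile, and in the highest the H4K5ac step lay above that of input without overlap.

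Long genes had the larger steps. Members of over 100 kb (1384) had an H4K5ac step of 1.10 (1.09 to 1.11) in FC and 1.09 (1.08 to 1.10) in CON, beside input steps of 1.03 and 1.01. Members of 10 to 30 kb (2104) had 1.04 (1.04 to 1.05) in FC and 1.04 (1.03 to 1.04) in CON, beside input steps of 1.05 and 1.03, so that H4K5ac and input did not differ beyond counting error in these shorter genes. Upstream density also followed length, with 0.490, 0.540 and 0.569 RPKM in FC for genes of 10 to 30, 30 to 100 and over 100 kb, and 0.477, 0.534 and 0.568 in CON.

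The level beyond the TTS differed more with the distance to the next gene than the step did. Members whose next downstream gene began at 10 to 20 kb (1661) had a downstream density of 0.529 RPKM in FC and 0.517 in CON, and those with over 100 kb of empty sequence (1088) had 0.461 and 0.464. FC input fell alike between these classes, from 0.512 to 0.453, while CON input was 0.431 and 0.447, and downstream GC content was 44.7% and 41.9%. The part of GC content in this difference was not tested. The steps of these classes were 1.07 and 1.06 at 10 to 20 kb and 1.06 and 1.08 at over 100 kb. The step differed little with the orientation of a next gene at 10 to 20 kb. Steps were 1.08 and 1.07 where it lay on the same strand (914) and 1.06 and 1.05 where it lay on the opposite strand (747). The level differed more, with downstream density of 0.508 RPKM in FC and 0.497 in CON on the same strand and 0.554 and 0.541 on the opposite strand. Downstream input was 0.504 in FC and 0.428 in CON on the same strand and 0.523 and 0.434 on the opposite strand. A long last exon went with a higher level, since members with a last exon of over 2000 bp (1911) had 0.583 RPKM upstream in FC and 0.579 in CON, against 0.455 and 0.446 for those under 500 bp (1083). Members with AATAAA had 0.546 RPKM upstream and a step of 1.07 in FC, and those without it 0.504 and 1.05. In CON these were 0.537 and 1.07 with AATAAA and 0.498 and 1.05 without it.

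**Figure D3:**
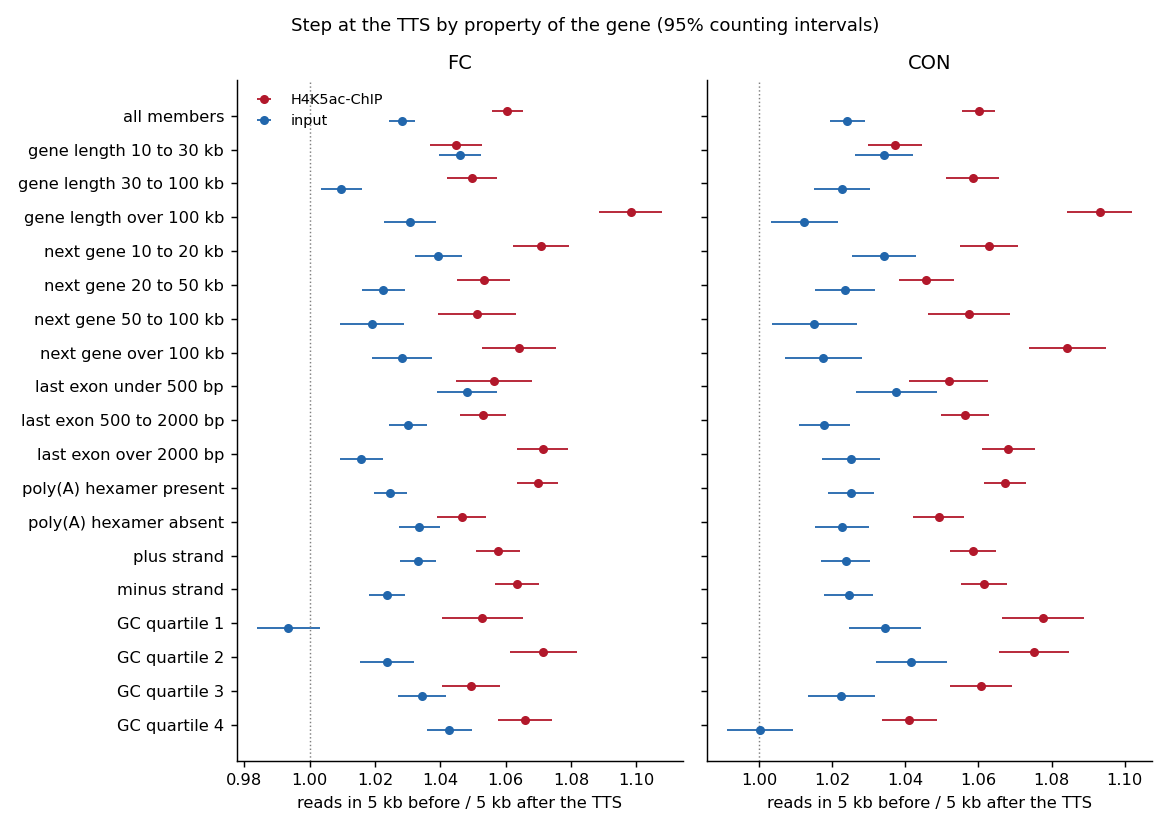
Reads in the 5 kb before over the 5 kb after the TTS (horizontal axis) with 95% counting intervals for classes of members, in H4K5ac-ChIP and input, FC on the left and CON on the right. The H4K5ac-ChIP step is largest for genes over 100 kb, at 1.10 and 1.09, and overlaps the input step for genes of 10 to 30 kb.

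Read density moved with GC content in 3 of the 4 H4K5ac-ChIP and input libraries. From the lowest quartile of GC content (30.7 to 40.3%) to the highest (46.9 to 57.9%), upstream density went from 0.313 to 0.734 RPKM in FC H4K5ac-ChIP and from 0.338 to 0.683 in CON H4K5ac-ChIP. FC input went from 0.305 to 0.670, whereas CON input stayed between 0.414 and 0.469. The H4K5ac step was 1.04 to 1.08 in every GC quartile of both groups. The FC input step was 0.993 in the lowest GC quartile and 1.04 in the highest, and the CON input step 1.03 and 1.00, so the step over input in single GC classes depends on which input library is used.

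Single members departed from the mean in both directions. A member was called higher upstream or downstream when the sides differed by at least 1.5-fold with a counting interval that left out 1, given at least 20 reads on both sides together, and 5333 members could be called in FC and 5340 in CON. H4K5ac-ChIP was higher upstream at 808 members (15.2%) in FC and 766 (14.3%) in CON, beside 11.4% and 10.3% of all measured TTS, which include the members. It was higher downstream at 403 (7.56%) in FC and 338 (6.33%) in CON, beside 9.59% and 7.95% of all TTS. Input was higher upstream at 565 members (10.3%) in FC and 395 (7.24%) in CON, beside 7.87% and 5.58%, and higher downstream at 416 (7.61%) and 238 (4.36%), beside 6.63% and 3.68%. In IgG-IP 294 (5.43%) and 329 (6.07%) were higher upstream, beside 4.42% and 4.91%. The members called higher upstream in both groups of H4K5ac-ChIP numbered 443, which is 54.8% of those in FC and 57.8% of those in CON, and 248 of the 443 were also called in an input library. Calls in both groups were not counted over all TTS, so this overlap cannot be read as particular to the members.

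Spearman's rho of the side ratio between FC and CON H4K5ac-ChIP across 5566 members was 0.66, against 0.28 between the IgG-IP libraries and 0.35 between the input libraries. It was 0.47 between H4K5ac-ChIP and input in FC and 0.37 in CON. These values describe members that share libraries, base composition and sites that cannot be mapped, and IgG-IP has the fewest reads. GC content moved with the side ratio unevenly between libraries, with a rho between the side ratio and the GC difference of the sides of 0.51 in FC input and 0.0037 in CON input, beside 0.28 for FC H4K5ac-ChIP and 0.20 for CON H4K5ac-ChIP. At the 2486 members whose sides differed by less than 2 percentage points of GC content, the H4K5ac step over the input step was 1.01 (1.01 to 1.02) for FC and 1.03 (1.02 to 1.04) for CON, and the part of GC content in single calls was not tested.

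Because input shared many of these calls, the H4K5ac step of each member was also divided by its input step, a comparison added after the data were seen. The ratio was at least 1.5-fold, with an interval above 1, at 496 members (9.30%) in FC and 502 (9.41%) in CON, beside 7.47% and 7.34% of all TTS. It was at most 1/1.5, with an interval below 1, at 303 (5.68%) and 269 (5.04%), beside 7.99% and 7.33%. The members called in both groups were 101 with the larger and 64 with the smaller ratio, or 20.4% and 20.1% of the FC and CON calls for the larger and 21.1% and 23.8% for the smaller. These overlaps, too, were not counted over all TTS.

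The members with the largest raw steps were places where 1 side held almost no reads in any library. At Med30, a subunit of the Mediator complex, FC H4K5ac-ChIP had 63 reads upstream and 0 downstream, CON H4K5ac-ChIP 78 and 1, FC input 82 and 0 and CON input 77 and 1. At Usp25, a deubiquitinase, these counts were 73 and 1, 82 and 3, 75 and 10, and 56 and 2. Hspa14, Wdr31 and 8430410K20Rik were the others, with 2 to 5 H4K5ac-ChIP reads downstream and 0 to 9 input reads. Among the smallest steps, Zbed4 had 2 and 68 reads in FC H4K5ac-ChIP and 5 and 66 in CON, with 9 and 70 in FC input and 4 and 69 in CON input. Adarb2, Suclg2, Xylt1 and Gm6483 were the others, and each was called higher downstream in both input libraries too. In all, 165 members had under 0.1 RPKM in both inputs on at least 1 side, and 23 of the 443 members called upstream in both groups were such places on the downstream side.

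Some members had a larger fall of H4K5ac at the TTS than of input. These were picked after the values were seen, as those with the largest ratio of H4K5ac step to input step among 4790 members with at least 50 H4K5ac-ChIP reads per group and 20 input reads on each side. At Faim2, a neuronal inhibitor of Fas-mediated cell death, H4K5ac-ChIP went from 1.70 to 0.643 RPKM across the TTS in FC and from 1.24 to 0.707 in CON. Input there was 0.607 and 0.612 in FC and 0.374 and 0.476 in CON, giving ratios of steps of 2.66 (1.86 to 3.80) for FC and 2.22 (1.46 to 3.39) for CON. In FC the mock pull-down also fell, with 37 and 15 IgG-IP reads, a step of 2.47 (1.32 to 4.84), against 24 and 25 in CON. At Oxsm, a mitochondrial fatty acid synthase, it went from 0.825 to 0.378 in FC and from 1.05 to 0.373 in CON, with a ratio of steps of 2.19 (1.42 to 3.38) and 4.08 (2.58 to 6.43). Its input was 0.518 and 0.523 in FC but 0.368 and 0.538 in CON, so the CON ratio also holds a rise in input, with an H4K5ac step of 2.81 (2.07 to 3.86) alone. At Pcdh10, a protocadherin of cell adhesion, H4K5ac-ChIP was 0.537 and 0.401 in FC and 0.604 and 0.424 in CON, steps that were not called in FC or CON, while input was lower upstream than downstream in both groups. Dzip3, Fam188a, D930020B18Rik and Gm9705 were also among those picked, with ratios of 2.05 to 2.81, but Gm9705 had an H4K5ac step of 1.20 (0.811 to 1.77) for FC and 1.3 (0.897 to 1.90) for CON, not called in either. Input there was lower upstream than downstream in both groups, and FC IgG-IP was called lower upstream, with 14 and 32 reads. At Dzip3 the FC mock pull-down fell about as much as H4K5ac-ChIP, with 33 and 12 IgG-IP reads, a step of 2.75 (1.38 to 5.85) beside 2.65 (1.67 to 4.34). At Fam188a CON IgG-IP was called higher upstream, with 40 and 21 reads.

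The opposite pattern, more H4K5ac outside the gene than in its last 5 kb, was found at other members, picked in the same way for the smallest ratio of steps. At C1qtnf2, a secreted protein of the C1q and TNF related family, H4K5ac-ChIP rose from 0.477 to 1.05 RPKM across the TTS in FC and from 0.399 to 0.945 in CON, with input at 0.612 on both sides in FC and at 0.442 and 0.476 in CON. CON IgG-IP rose there too, from 20 to 42 reads, but FC IgG-IP had 28 and 23. The FC step was 0.453 (0.331 to 0.615) and the CON step 0.422 (0.308 to 0.571). At Tyrp1, an enzyme of melanin synthesis, it went from 0.272 to 0.711 in FC and from 0.328 to 0.669 in CON. Zfp619, 1810024B03Rik and Ptchd3 were the other 3.

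Of the 4 members with the highest downstream ratio to input, 3 had no fall at the TTS, which the choice by the downstream side favours. Hs1bp3 had 1.88 RPKM upstream and 2.19 downstream in FC H4K5ac-ChIP and 1.86 and 1.97 in CON, with a step of 0.862 (0.724 to 1.02) and 0.948 (0.804 to 1.12). It still had 1.53 and 1.65 RPKM at 5 to 10 kb, with input at 0.685 and 0.408 there. Dnajb12, a membrane co-chaperone of the endoplasmic reticulum, had 1.85 and 2.19 in FC and 1.71 and 1.76 in CON, and Csf1, the growth factor of macrophages and microglia, had 1.48 and 1.51 in FC and 1.36 and 1.36 in CON. At all 3 the acetylated region ran through the TTS without a difference between its sides beyond counting error. The fourth member with the highest downstream ratio to input was 8430410K20Rik, where it rested on 5 and 4 H4K5ac-ChIP reads.

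Relative to input, H4K5ac-ChIP passed the same rule upstream at 900 members (16.5%) in FC and 1464 (26.9%) in CON, beside 21.3% and 39.6% of all TTS. Downstream it passed at 734 (13.5%) and 1267 (23.4%), beside 22.8% and 40.3%. The opposite direction, below input, was called upstream at 1136 (20.9%) in FC and 1121 (20.6%) in CON, beside 14.4% and 13.1%, and downstream at 1225 (22.6%) and 1209 (22.3%), beside 14.8% and 13.6%. In FC more members were thus below input than above it. The input libraries differed more between groups than H4K5ac-ChIP did. Mean upstream density was 0.502 RPKM in FC and 0.445 in CON input, beside 0.528 and 0.521 in H4K5ac-ChIP. The FC over CON ratio of input followed GC content, with a Spearman's rho of 0.88. The counts of FC and CON thus rest on unlike inputs, and the part of input in their difference was not tested. Both groups passed upstream at 604 members, and 264 of these passed downstream as well (43.7%), an overlap that was not counted over all TTS. In FC the 405 members that passed on both sides had 0.927 RPKM upstream, 0.938 downstream and 0.781 at 5 to 10 kb. The 495 that passed upstream only had 0.791, 0.624 and 0.541, the 329 that passed downstream only 0.665, 0.847 and 0.670, and the 4174 that passed on neither side 0.466, 0.432 and 0.394. The levels of the first classes follow from the rule that formed them, whereas the region from 5 to 10 kb was not used by it.

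Among members that the study names for H4K5ac, 4 had 0.310 to 0.675 RPKM upstream of the TTS, on both sides of the median of all members, 0.515 in FC and 0.521 in CON. Ntrk2, the receptor for BDNF, had 0.666 RPKM upstream and 0.636 downstream in FC H4K5ac-ChIP and 0.675 and 0.739 in CON. Akap6, an anchoring protein for protein kinase A, had 0.643 and 0.454 in FC and 0.656 and 0.469 in CON, a step of 1.42 (1.01 to 2.01) and 1.40 (1.02 to 1.91) that stayed under 1.5-fold, while its FC input had a called step of 1.51 (1.07 to 2.13) and its CON input 0.901 (0.648 to 1.25). Grid1, a glutamate receptor of the delta class, had 0.371 on both sides in FC and 0.437 and 0.457 in CON. Input was called higher upstream in CON at Ntrk2, with a step of 1.62 (1.12 to 2.38), and at Grid1, with 1.62 (1.14 to 2.33). Kcnd2, a potassium channel of dendrites, had 0.310 and 0.431 in FC and 0.495 and 0.322 in CON, and its sides were thus ordered differently in the 2 groups, with an FC step of 0.719 (0.469 to 1.09) and a CON step of 1.54 (1.06 to 2.24). None of the 4 was called between FC and CON over the 10 kb around the TTS. The study lists them as differentially acetylated in FC over control, from peaks called in promoters or coding regions. Those peaks may lie outside the 10 kb read here, so the calls are not like for like.

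The list counts that follow stand beside the shares of all members called in H4K5ac-ChIP, which were 15.2% in FC and 14.3% in CON higher upstream and 7.56% and 6.33% higher downstream. The lists hold 8 to 40 members, and none was tested against these shares. Median steps in FC and CON were 1.07 and 1.06 over all members, 1.07 and 1.09 for adhesion, 1.11 and 1.16 for scaffold and release, 1.09 and 0.984 for receptor and 1.07 and 0.949 for channel genes. They were 0.978 and 0.952 for transcription factor, 0.909 and 1.00 for glial, 0.984 and 0.989 for immediate early and 0.959 and 1.02 for liver, muscle and blood genes. Synaptic adhesion and organiser genes were represented by 40 members, with median H4K5ac-ChIP density of 0.412 RPKM upstream and 0.348 downstream in FC and 0.447 and 0.383 in CON. The medians over all members were 0.515 and 0.469 in FC and 0.521 and 0.476 in CON. Of the 40, 6 in FC and 2 in CON were called higher upstream, none higher downstream, and Epha4 was called in both groups. Input of the 40 was called higher upstream at 6 in FC and 4 in CON, and higher downstream at 0 in FC and 1 in CON. Epha4, an ephrin receptor of axon guidance and spines, had 0.984 RPKM upstream and 0.575 downstream in FC and 1.09 and 0.476 in CON. Its steps were 1.71 (1.28 to 2.30) and 2.30 (1.74 to 3.06), with input level at 0.361 and 0.371 in FC and 0.476 and 0.456 in CON. Ncam1, Dscaml1 and Ptprf, the others with the most reads, were not called in either group. Ptprf, a receptor phosphatase, had 0.727 and 0.901 in FC and 0.669 and 0.836 in CON, a difference within counting error.

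Presynaptic and postsynaptic scaffold and release genes (18 members) had medians above those of all members, 0.598 RPKM upstream and 0.658 downstream in FC and 0.759 and 0.685 in CON. Of these, 1 in CON and 0 in FC were called higher upstream, and 0 in both were called higher downstream. Rims2, which organises the presynaptic active zone, had 0.923 and 0.674 in FC and 1.05 and 0.759 in CON, with steps of 1.37 (1.03 to 1.82) and 1.38 (1.08 to 1.77). Homer1, a postsynaptic scaffold with an activity-induced form, had 0.908 and 0.817 in FC and 0.855 and 0.810 in CON. It was over input upstream in both groups, as was Rims2. Syn2, a synaptic vesicle protein, had 0.916 and 0.727 in FC and 0.945 and 0.688 in CON.

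Ionotropic glutamate and GABA-A receptor genes (19 members) had medians of 0.424 RPKM upstream and 0.371 downstream in FC and 0.502 and 0.457 in CON, and 4 in FC and 3 in CON were called higher upstream and 1 in each higher downstream. Input of the 19 was called higher upstream at 3 in FC and 2 in CON, and higher downstream at 1 in FC and 0 in CON. Gabrd, the delta subunit of extrasynaptic GABA-A receptors, had the highest density, 1.04 and 1.20 in FC and 0.907 and 1.09 in CON, and was the only one over input downstream in both groups. Gabra2 and Gabra6, alpha subunits, were called higher upstream in both groups, and they are named here for that call. Gabra2 had 0.394 and 0.235 in FC and 0.476 and 0.270 in CON, with steps of 1.68 (1.06 to 2.71) and 1.76 (1.19 to 2.64), beside input at 0.225 and 0.235 in FC and 0.402 and 0.327 in CON, but its IgG-IP was called higher upstream in both groups, with 30 and 9 reads in FC and 45 and 21 in CON. Gria1, Grik3 and Grik4, subunits of AMPA and kainate receptors, had 0.636 to 0.923 RPKM on either side in both groups and no call.

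Among 17 voltage-gated channel genes, with FC medians of 0.590 and 0.507 and CON medians of 0.540 and 0.489, both directions occurred: 3 in each group were higher upstream, and 1 in FC and 2 in CON higher downstream. Input of the 17 was called higher upstream at 3 in FC and 2 in CON, and higher downstream at 1 in FC and 0 in CON. Cacna1i, a T-type calcium channel, was higher downstream in both groups, at 0.590 and 0.984 RPKM in FC and 0.502 and 0.830 in CON, with steps of 0.600 (0.447 to 0.801) and 0.605 (0.450 to 0.807). Cacna1e, of the R type, was higher upstream in both, with steps of 2.00 (1.40 to 2.89) and 2.61 (1.83 to 3.79), but FC input at 1.84 (1.33 to 2.55) and CON IgG-IP at 2.53 (1.36 to 4.96) were called as well. Cacna1a, of the P/Q type, had a step larger than that of input in both groups, at 0.916 and 0.507 in FC and 0.739 and 0.540 in CON. Cacna1g, another T-type channel, had 0.855 and 1.04 RPKM in FC and 0.785 and 0.997 in CON and no call.

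Of 18 forebrain transcription factor genes, Satb1 had a larger step than input in both groups, with 0.605 and 0.212 RPKM in FC and 0.521 and 0.334 in CON. Zeb2 was higher downstream in both, with 0.477 and 0.893 in FC and 0.534 and 0.958 in CON, steps of 0.534 (0.387 to 0.731) and 0.557 (0.421 to 0.733), and CON input was called the same way at 0.662 (0.452 to 0.963). Zeb2 and Myt1l, a neuronal factor with 0.923 and 1.13 in FC and 0.939 and 0.997 in CON, were over input downstream in both groups. The medians of the list were 0.518 and 0.628 in FC and 0.527 and 0.646 in CON. Input of the same genes was also higher downstream, with medians of 0.458 and 0.481 in FC and 0.473 and 0.5 in CON. Of the 18, 2 in each group were called higher upstream and 4 in FC and 3 in CON higher downstream, and in input 0 were called higher upstream and 3 and 2 higher downstream.

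The 10 glial genes had medians of 0.617 and 0.568 RPKM in FC and 0.534 and 0.534 in CON, with 2 called higher upstream in FC and 1 in CON. Aqp4, the water channel of astrocyte endfeet, was called higher upstream in both groups, at 0.484 and 0.295 in FC and 0.508 and 0.277 in CON. Cspg4, a proteoglycan of oligodendrocyte precursors, had 0.923 and 0.984 in FC and 0.894 and 0.817 in CON. Slc1a3, the glutamate transporter of astrocytes, had 0.674 and 0.817 in FC and 0.540 and 0.707 in CON. The 8 immediate early and neurotrophin genes had medians of 0.541 and 0.640 in FC and 0.569 and 0.662 in CON, with none called between sides. Per1, a clock gene that is also induced by activity, had 0.848 and 0.802 in FC and 0.566 and 0.785 in CON. Its input was 0.764 and 0.586 in FC and 0.388 and 0.347 in CON. Over the 10 kb, input of Per1 was called higher in FC, with a fold of 1.84 (1.46 to 2.32). Its H4K5ac-ChIP fold of 1.22 (1.01 to 1.48) was not called. Ntrk3, the receptor for neurotrophin 3, was over input downstream in both groups.

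Genes of liver, muscle and blood cells (26 members) gave the lowest medians of the lists, 0.333 RPKM upstream and 0.280 downstream in FC and 0.328 and 0.325 in CON, with 0 of 26 over input on either side in FC and 1 upstream and 2 downstream in CON, beside 16.5% and 13.5% of all members in FC and 26.9% and 23.4% in CON. Their input medians were 0.405 and 0.481 in FC and 0.480 and 0.446 in CON. Cyp2c29, a liver cytochrome, had 0.106 and 0.0454 in FC and 0.109 and 0.0193 in CON, and its input was 0.324 and 0.0523 in FC and 0.429 and 0.102 in CON. Of the 26, 4 in FC and 3 in CON were called higher upstream and 3 in FC and 4 in CON higher downstream, and in input 2 and 4 were higher upstream and 5 and 1 higher downstream. Ctla4, an inhibitory receptor of T cells, was called higher downstream in both, with 49 and 76 reads in FC and 59 and 122 in CON, beside 93 and 101 in FC input and 58 and 64 in CON input. The list was not uniform, since Cd2 of T cells had 0.885 and 0.840 in FC and 0.707 and 0.669 in CON. In bulk tissue, fewer cells of a type and less acetylation per cell cannot be told apart.

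Scaled to each library's own reads, H4K5ac-ChIP density at the TTS was nearly the same in FC and CON. This scaling removes any difference in the total amount of H4K5ac, so the ratios compare its distribution only. The study's Western blots reported more H4K5ac in the hippocampus of conditioned mice than of controls. Over the 10 kb around the TTS, the log2 ratio of FC to CON density had a median of 0.02 across members, with the middle 50% from -0.13 to 0.17 and the middle 90% from -0.37 to 0.42. By the 1.5-fold rule, 52 of 5441 members were higher in FC (0.956%), beside 0.612% of all TTS, and 30 were higher in CON (0.551%), beside 0.338%. These counts depended on the setting. With 2 kb on each side they were 95 and 102, and with the FC over CON ratio of each member divided by that of its input they were 335 and 547. The shares of all TTS were not computed under these settings, so these counts cannot be read as particular to the members. The control libraries gave more calls. IgG-IP was higher in FC at 58 members (1.06%), beside 1.00%, and in CON at 125 (2.29%), beside 2.96%. Input was higher in FC at 623 (11.3%), beside 18.7%, and in CON at 409 (7.45%), beside 4.88%. Spearman's rho between the FC over CON ratio and GC content across 5566 members was 0.88 in input, 0.24 in H4K5ac-ChIP and -0.13 in IgG-IP, so the 2 input libraries differed in base composition.

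**Figure D4:**
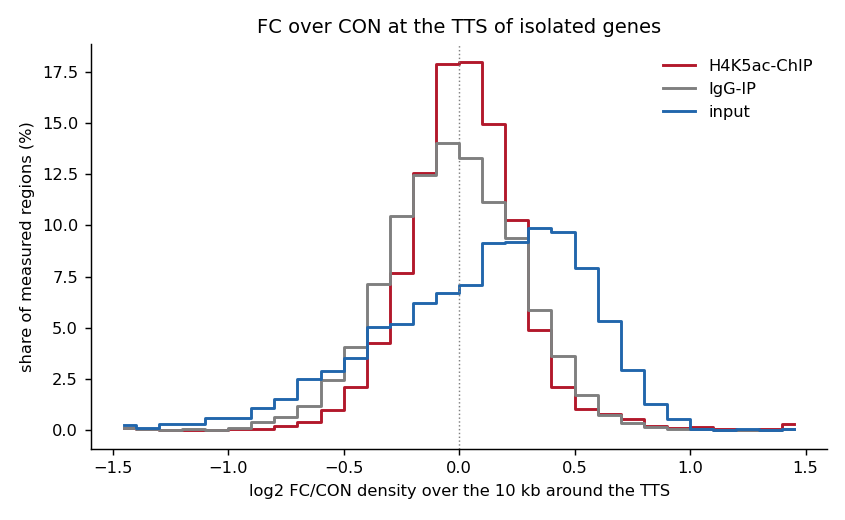
Share of the 5566 members (%) against the log2 ratio of FC to CON density over the 10 kb around the TTS, in bins of 0.1, with values beyond 1.5 placed in the outermost bins. The H4K5ac-ChIP ratios lie closest to 0, with the middle 90% from -0.37 to 0.42, and the input ratios are the widest.

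The members called between groups had few reads. The 52 higher in FC had a median of 60.5 reads in FC and 42.5 in CON, and the 30 higher in CON 58.5 and 108.5, against medians of 133 and 158 over all members. Their median GC content was 41.5% and 38.2%, against 43.5%. The largest folds in FC were at Cyp2c38 (18 and 6 reads), Vmn2r99 (25 and 11), Vmn2r5 (21 and 10), Cyp3a11 (24 and 12) and Psg23 (18 and 9), which encode liver cytochromes, pheromone receptors and a placental glycoprotein. The fold at Cyp2c38 was 3.53 (1.34 to 10.9), and all 5 had under 0.1 RPKM in both H4K5ac-ChIP libraries. The largest folds in CON were at Hcrtr2 (35 and 80 reads in FC and CON), Ankrd7 (20 and 44), Cntn5 (42 and 92), Dpy19l2 (16 and 35) and Sult1c1 (19 and 40). Hcrtr2, an orexin receptor, had a fold of 0.515 (0.336 to 0.775), and Cntn5, a contactin of neuronal adhesion, 0.537 (0.364 to 0.782). With at least 50 reads required in each library, 21 members remained called higher in FC and 18 higher in CON.

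On the lists, 4 members were called between groups, beside 0.956% of all members higher in FC and 0.551% higher in CON. Mal, a myelin protein of oligodendrocytes, had 0.749 RPKM upstream and 0.976 downstream in FC against 0.476 and 0.617 in CON, a fold of 1.58 (1.29 to 1.94), with input at 1.22-fold and IgG-IP at 0.791-fold. Cyp3a11 was the other higher in FC, and Cntn5 and Cntnap5a were the adhesion genes higher in CON. Cntnap5a had 0.235 and 0.189 in FC and 0.328 and 0.347 in CON, a fold of 0.628 (0.446 to 0.876), and its input was called in the same direction, with a fold of 0.619 (0.482 to 0.792). At Cntn5 the input fold was 0.904 (0.703 to 1.16). No member of the receptor (19), channel (17), scaffold (18), transcription factor (18) or immediate early (8) lists was called between FC and CON H4K5ac-ChIP. At the shares of all members given above, lists this short are too small for an absence of calls to be read as a result.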

How the data were processed

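Chromatin of mouse hippocampus was sequenced by the authors on the SOLiD system, and 50-base reads were aligned to mm9 with Bioscope. The authors deposited aligned reads, 1 record per read, and the score in each deposited record is a mapping quality from 4 to 100, not a count. Reads could be reported with up to 10 mappings, so repeats hold reads of uncertain place. Reads of chromosomes 1 to 19 with the same 5′ position and strand were counted once (11.5 to 17.9% of autosomal reads were repeats) and moved 75 bp towards the fragment centre. Genes and TTS came from GENCODE for NCBIM37, the same build, and no read lay beyond a chromosome end. Counts, exact binomial intervals and, for ratios of steps, intervals of the log ratio of 4 counts (0.5 reads added for single members) came from scripts in Python 3.11.15, SciPy 1.17.1, NumPy 2.4.6 and pandas 2.3.3, and checked on simulated data. Figures were drawn with matplotlib 3.10.9.

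Samples were grouped by their labels. With 1 library per group and antibody no test across samples was made, and a call means at least 1.5-fold with a 95% interval that leaves out 1. Members and gene lists were chosen with earlier results of these data known. Named are the members that the study names, up to 4 per list with the most H4K5ac-ChIP reads and the 2 of the liver, muscle and blood list with the fewest, the 5 largest and 5 smallest steps and the 4 highest downstream ratios to input among members with at least 50 reads per group, and the 5 largest folds in each direction. Genes picked by the step over input, and list members named for a call, were chosen after their values were seen. Alternatives were all deposited reads, 2 kb windows, unshifted reads, isolation of 20 kb, the longest transcript, members without the 1% with most input reads, a score of at least 20, matched GC content, the median of members, IgG-IP in place of input, a 2-fold rule and other scalings. Values of some named members are not reported here.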

Additional observations from a re-analysis of the deposited data

How the results depend on the processing

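No paired analysis was possible because each group and antibody has 1 library. Windows of 2 kb removed the raw step: 0.996 in FC and 0.999 in CON. Over the input step, the FC value was reduced to 1.011 (1.002 to 1.021), and the CON value was 0.997 (0.988 to 1.007). The 2 kb windows gave 358 (FC) and 391 (CON) members higher upstream, 95 higher in FC and 102 higher in CON. Isolation of 20 kb left 3585 members, of which 498 and 488 were higher upstream, with a step over input of 1.04 in CON. A mapping score of at least 20 gave a step of 1.07 in CON and 49 members higher in CON. The 2486 members with GC content within 2 percentage points between sides gave a step of 1.05 in FC, 1.01 over input, and 302 and 284 members higher upstream. Medians of the members' own ratios were 1.07 in FC and 1.06 in CON, and 1.05 over input in both. The 2-fold rule left 319 and 272 members higher upstream, 11 higher in FC and 0 higher in CON. All deposited reads gave 82 higher in FC and 52 higher in CON. Dividing the FC over CON ratio by that of input gave 335 higher in FC and 547 higher in CON. The shares of all TTS were not computed for the counts under these settings.

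Added after seeing the data, the step over the input step gave 496 and 502 members higher upstream, members with 20 input reads on each side a step of 1.06 in CON, and 50 reads per library 21 members higher in FC and 18 in CON. All other alternatives kept a step within the counting interval and a count within 1.5 times. Fewer members or fewer reads are part of the 2 kb, 20 kb, GC and 50-read settings. Elsewhere the cause was not tested. Depth limits single members: the median member had 62 to 81 H4K5ac-ChIP reads on a side.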
